A study of Mus musculus with 24 samples.

Results

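The Nr4a orphan nuclear receptors are the 3 genes Nr4a1, Nr4a2 and Nr4a3, taken here as the rows with exactly these gene names among the 24340 genes of each of 6 tables of striatal RNA-seq. The tables came from male mice in 4 groups, with 5 libraries of WT-vehicle, 6 of R6/1-vehicle, 6 of WT-RGFP109 and 7 of R6/1-RGFP109. R6/1 mice were hemizygous for a transgene with exon 1 of human HTT and an expanded CAG repeat, a model of Huntington's disease, on a C57BL/6J background, and the WT mice were their littermates without it. RGFP109, an inhibitor of the histone deacetylases HDAC1 and HDAC3, was given at 30 mg/kg into the peritoneum 5 times a week over 3 weeks, a span of 23 days, starting when the mice were 11 to 14 weeks old, and vehicle mice received the same volume of dimethyl sulfoxide diluted in saline. All mice were killed 18 h after the last injection, at 14 to 17 weeks. The comparisons ask how the 3 receptors differed between R6/1 and WT striatum, and between RGFP109 and vehicle within each genotype.

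Each table holds 1 level per gene and group, in FPKM (sequenced fragments scaled to the length of the transcript and to the size of the library), which the authors pooled over the libraries of that group. The spread between mice is therefore not in these values. The tests that the authors deposited beside them were not used, so the differences below carry no error and no test, and none was compared with replicate error. Depth per library is unknown. Differences are given as log2 ratios within 1 table, after adding 0.05 FPKM to both levels, and a gene is called past the fold when this ratio lies above 0.5 or below -0.5.

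Nr4a1 (also known as Nur77), Nr4a2 (Nurr1) and Nr4a3 (Nor1) are transcription factors that act without a known hormone, so that their activity follows how much of them a cell makes. They are immediate early genes: membrane depolarisation, calcium entry and cAMP switch them on within minutes through CREB, and their RNA is short-lived. In striatal projection neurons Nr4a1 responds to dopamine and glutamate input. Nr4a2 is best known as the factor that dopamine neurons need for their identity and is also a marker of the claustrum and of deep cortical layers. Nr4a3 is induced by much the same stimuli as the others. They bind DNA alone at the NBRE element, and Nr4a1 and Nr4a2 also pair with retinoid X receptors.

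In the deposited tables, which use mm10, Nr4a1 lies at chr15:101266846-101274794, Nr4a2 at chr2:57107226-57124003 and Nr4a3 at chr4:48045305-48086446. In GENCODE vM21, Nr4a1 and Nr4a3 are on the plus strand and Nr4a2 on the minus strand, each gene has transcripts with up to 8 exons, and no other annotated gene overlaps any of the 3. The 250 bases before each start site are shown because all 3 hold the same number of copies of TGACG, the core of the cAMP response element to which CREB binds. The sequences are from RefSeq on GRCm38.p6, 5′ to 3′ on the strand of the gene, and capitals mark TGACG on either strand, so that a copy on the opposite strand reads CGTCA. For Nr4a3, whose window lies partly in the first exon of a longer annotated transcript, only the bases around the cores are given.
Nr4a1, chr15:101266596-101266845, plus strand: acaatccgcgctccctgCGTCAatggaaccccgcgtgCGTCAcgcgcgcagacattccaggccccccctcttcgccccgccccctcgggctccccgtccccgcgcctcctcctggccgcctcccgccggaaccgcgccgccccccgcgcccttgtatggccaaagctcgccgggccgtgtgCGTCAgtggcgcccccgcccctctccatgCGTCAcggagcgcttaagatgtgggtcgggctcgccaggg
Nr4a2, chr2:57124004-57124253, minus strand: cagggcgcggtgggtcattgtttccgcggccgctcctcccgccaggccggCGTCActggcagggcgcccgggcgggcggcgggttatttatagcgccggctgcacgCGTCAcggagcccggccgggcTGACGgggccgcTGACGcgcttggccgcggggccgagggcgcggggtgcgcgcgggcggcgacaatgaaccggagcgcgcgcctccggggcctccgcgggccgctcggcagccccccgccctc
Nr4a3, chr4:48045070-48045082, plus strand: agggTGACGtagc
Nr4a3, chr4:48045088-48045108, plus strand: atgtCGTCAcatTGACGtctc
Nr4a3, chr4:48045154-48045166, plus strand: taaaTGACGtgcc

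Each of the 3 windows held 4 TGACG cores. Among all 32851 promoter windows of the same length in the RefSeq table, some of which belong to the same gene, 17.8% held at least 1 core and 0.137%, or 45 windows, held 4 or more. Base composition moves with this count, since the core contains CG: the member windows had GC contents of 74.4% for Nr4a1, 80.0% for Nr4a2 and 63.6% for Nr4a3, and of the 6219 windows between the lowest and the highest of these, 0.402% held 4 or more. In Nr4a1 the cores began 233, 213, 69 and 40 bases before the start and all 4 lay on the opposite strand. In Nr4a2 they began 200, 144, 123 and 111 bases before it, with the 2 nearest the start on the strand of the gene. In Nr4a3 they began 231, 213, 205 and 147 bases before it. None of the 3 windows held the 8-base palindrome TGACGTCA, which contains the core on both strands and was in 1.55% of all windows, the NBRE element AAAGGTCA, in 1.34%, or a CArG box, the element of serum response factor, in 1.47%. The GC box GGGCGG occurred 3 times in Nr4a1, 4 times in Nr4a2, where 1 pair of copies overlaps, and 1 time in Nr4a3, and 32.7% of all windows held it. Of the 6219 windows in the GC range of the members, 81.9% held at least 1 GC box and 32.5% at least 3. These matches describe letters in the reference, and occupancy by any factor was not measured.

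All 3 receptors had their highest level in WT-RGFP109, then WT-vehicle, then R6/1-RGFP109, and their lowest in R6/1-vehicle. Nr4a1 was the most abundant, with levels over the 3 tables that hold each group of 37.0 to 38.4 FPKM in WT-vehicle, 39.8 to 41.4 FPKM in WT-RGFP109, 18.6 to 19.3 FPKM in R6/1-vehicle and 21.8 to 22.4 FPKM in R6/1-RGFP109. Nr4a2 stood at 10.9 to 11.3 FPKM in WT-vehicle, 11.5 to 11.97 FPKM in WT-RGFP109, 5.17 to 5.35 FPKM in R6/1-vehicle and 9.06 to 9.34 FPKM in R6/1-RGFP109. Nr4a3 stood at 3.41 to 3.54 FPKM in WT-vehicle, 3.76 to 3.91 FPKM in WT-RGFP109, 2.25 to 2.33 FPKM in R6/1-vehicle and 2.80 to 2.89 FPKM in R6/1-RGFP109. For Nr4a1 both R6/1 groups lay far below both WT groups, whereas the level of Nr4a2 in R6/1-RGFP109 lay nearer to WT than to R6/1-vehicle. These ranges, 3.11% to 4.03% wide, reflect a scale factor that differs between tables and not the spread between mice, so which neighbours in the order differ beyond that spread cannot be said. The narrowest steps were those between the WT groups.

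**Figure D1:**
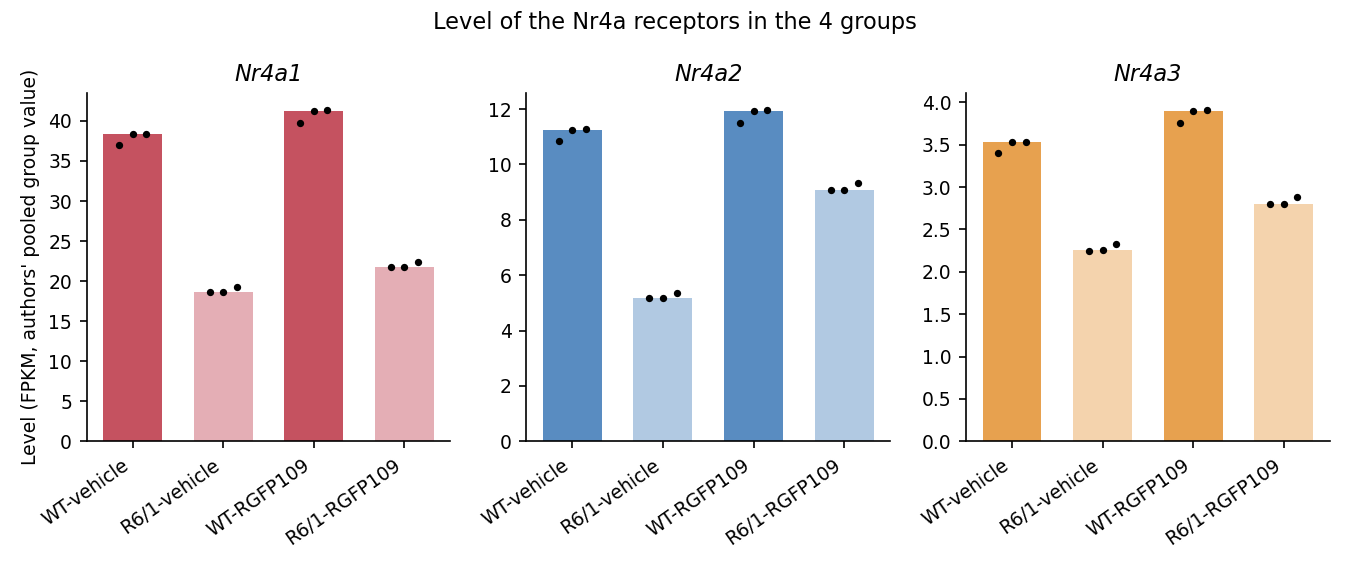
Level of each receptor in the 4 groups, in FPKM on axes that start at 0. Bars are the median over the 3 tables that hold the group and dots are the 3 values, which are the authors' pooled value on 3 scales and not mice; the R6/1-vehicle bar is the lowest for all 3 receptors, and R6/1-RGFP109 reaches 9.07 FPKM for Nr4a2 against 5.18 FPKM in R6/1-vehicle.

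FPKM is per length of transcript, so levels can be set side by side between genes. In WT-vehicle, Nr4a1 was 3.41 times as abundant as Nr4a2 and 10.9 times as abundant as Nr4a3 in the table of the vehicle groups, and it made up 72.2% of the summed level of the family, 53.1 FPKM. In R6/1-vehicle the sum was 26.0 FPKM with nearly the same composition, as Nr4a1 made up 71.5%, Nr4a2 19.9% and Nr4a3 8.65%. In R6/1-RGFP109 the sum was 33.7 FPKM in the table of the RGFP109 groups, and the share of Nr4a2 was 27.0%, against 20.9% in WT-RGFP109 and 21.2% in WT-vehicle. Among 49 listed nuclear receptor genes in WT-vehicle, Nr4a1 ranked 5 by level, behind Thra, Nr1d1, Rxrg and Rxrb, while Nr4a2 ranked 14 and Nr4a3 ranked 25.

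In vehicle-treated mice all 3 receptors were lower in R6/1 than in WT. Nr4a2 was 11.3 FPKM in WT-vehicle and 5.17 FPKM in R6/1-vehicle, a log2 ratio of -1.11 or 2.17-fold lower. Nr4a1 was 38.3 FPKM in WT-vehicle and 18.6 FPKM in R6/1-vehicle, a log2 ratio of -1.04 or 2.06-fold lower. Nr4a3 was 3.53 FPKM in WT-vehicle and 2.25 FPKM in R6/1-vehicle, a log2 ratio of -0.64 or 1.56-fold lower, which falls to -0.48, inside the fold, with a pseudocount of 1 FPKM. So 3 of 3 members were past the fold downward, against 13.4% of the 16972 genes kept (over 0.1 FPKM in 1 of the groups); 5.84% of these genes were past it upward. Among the 13886 genes over 1 FPKM, as the members are, 10.8% were past it downward. The median log2 ratio of all genes kept was -0.02, and 4.14% of them had a lower ratio than Nr4a1, 3.58% than Nr4a2 and 9.76% than Nr4a3.

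The same direction was seen between the RGFP109 groups, which share no library with the vehicle groups. Nr4a1 was 41.4 FPKM in WT-RGFP109 and 21.8 FPKM in R6/1-RGFP109, a log2 ratio of -0.92. Nr4a3 was 3.91 FPKM in WT-RGFP109 and 2.80 FPKM in R6/1-RGFP109, a log2 ratio of -0.47, and Nr4a2 was 11.97 FPKM in WT-RGFP109 and 9.07 FPKM in R6/1-RGFP109, a log2 ratio of -0.40. Only Nr4a1 of the 3 was past the fold, where 11.7% of the 16954 genes kept were past it downward and 5.39% upward. The genotype ratio was closer to 0 with RGFP109 than with vehicle for all 3, by 0.12 for Nr4a1, 0.16 for Nr4a3 and 0.72 for Nr4a2 on the log2 scale; these differences were not tested.

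In R6/1 striatum the level of Nr4a2 was higher with RGFP109 than with vehicle. It was 5.35 FPKM in R6/1-vehicle and 9.34 FPKM in R6/1-RGFP109, a log2 ratio of 0.80 or 1.74-fold, and 98.5% of the 16840 genes kept had a lower ratio. Nr4a3 was 2.33 FPKM in R6/1-vehicle and 2.89 FPKM in R6/1-RGFP109, a log2 ratio of 0.30, and Nr4a1 was 19.3 FPKM in R6/1-vehicle and 22.4 FPKM in R6/1-RGFP109, a log2 ratio of 0.22. Both lay inside the fold, so 1 of 3 members was past it upward, where 2.62% of all genes kept were past it upward and 3.14% downward. The pooled level of Nr4a2 thus differed more between these groups than those of its relatives did.

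In WT striatum the 3 receptors differed little between RGFP109 and vehicle. Nr4a1 was 37.0 FPKM in WT-vehicle and 39.8 FPKM in WT-RGFP109, a log2 ratio of 0.10, Nr4a2 was 10.9 and 11.5 FPKM in the same groups, a log2 ratio of 0.08, and Nr4a3 was 3.41 and 3.76 FPKM, a log2 ratio of 0.14. None of the 3 was past the fold, which 3.19% of the 16957 genes kept passed upward and 4.92% downward. The log2 ratio of RGFP109 over vehicle was higher in R6/1 than in WT by 0.72 for Nr4a2, by 0.16 for Nr4a3 and by 0.12 for Nr4a1. These must equal the differences between the genotype ratios given above, apart from the scale of the tables, and are not a second result. Of the 16534 genes kept in both pairs, 97.3% had a smaller such difference than Nr4a2.

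The treated R6/1 group was also set against untreated WT mice, to see how far each receptor remained from its WT-vehicle level. Nr4a1 was 38.4 FPKM in WT-vehicle and 21.8 FPKM in R6/1-RGFP109, a log2 ratio of -0.82, and stayed past the fold. Nr4a2 was 11.3 and 9.06 FPKM in these groups, a log2 ratio of -0.31, and Nr4a3 was 3.54 and 2.80 FPKM, a log2 ratio of -0.33, so that 2 of 3 members lay inside the fold. Downward, 13.8% of the 16982 genes kept were past it, and upward 5.42%. In the remaining pair all 3 were higher in WT-RGFP109 than in R6/1-vehicle, with log2 ratios of 1.20 for Nr4a2, 1.15 for Nr4a1 and 0.78 for Nr4a3, where 11.4% of the 16949 genes kept were past the fold upward and 5.96% downward. These pairs share groups with those above and give no independent view of them.

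**Figure D2:**
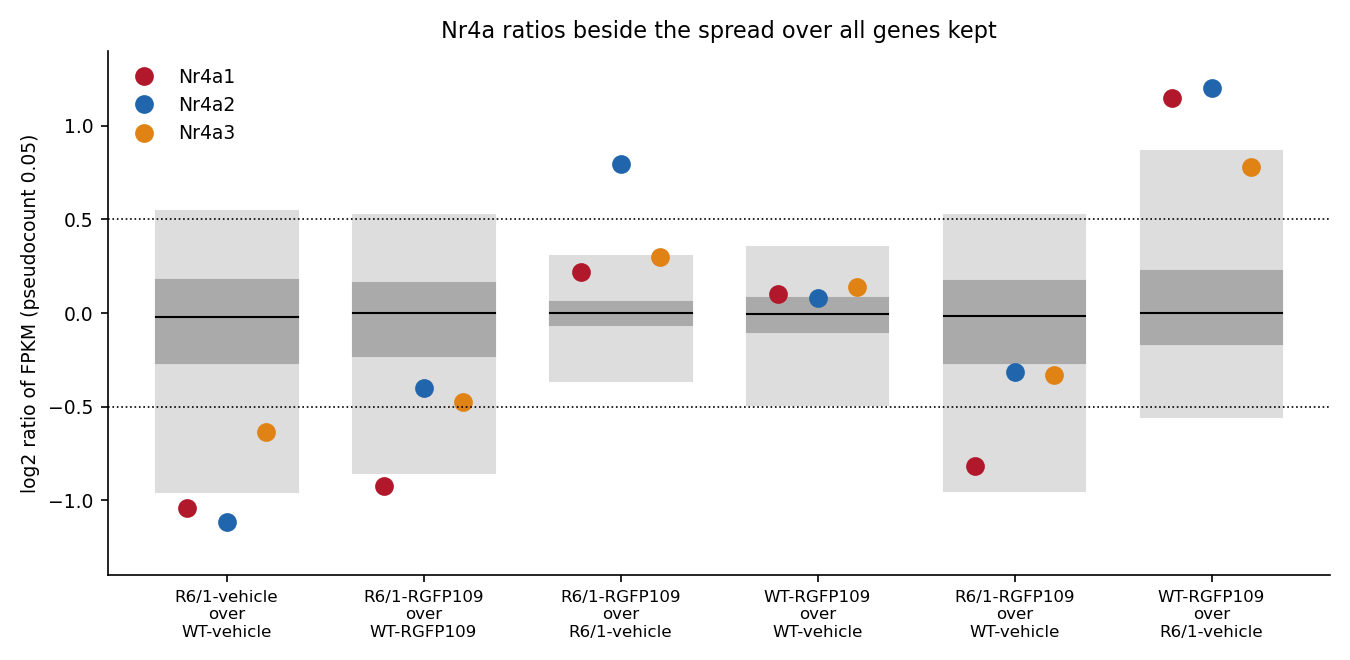
Log2 ratio of FPKM of the 3 receptors (coloured dots) in the 6 pairs of groups, over the spread of all genes kept: light grey spans 5% to 95% of genes, dark grey 25% to 75%, the black line is the median and dotted lines mark 0.5 and -0.5. Nr4a2 stands apart from Nr4a1 and Nr4a3 at 0.80 for R6/1-RGFP109 over R6/1-vehicle, and the 3 lie together near 0.1 for WT-RGFP109 over WT-vehicle.

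The retinoid X receptors, with which Nr4a1 and Nr4a2 can pair, did not share 1 pattern. Rxrg, the form enriched in striatal neurons, was 62.0 FPKM in WT-vehicle and 30.8 FPKM in R6/1-vehicle, a log2 ratio of -1.01, close to those of Nr4a1 and Nr4a2. Between the RGFP109 groups its log2 ratio was -0.85. Unlike the Nr4a genes, Rxrg was lower with RGFP109 than with vehicle in R6/1, at 28.1 against 31.9 FPKM, a log2 ratio of -0.18, and in WT, at 47.1 against 59.9 FPKM, a log2 ratio of -0.34, both inside the fold. Rxrb went from 42.6 FPKM in WT-vehicle to 33.6 FPKM in R6/1-vehicle, a log2 ratio of -0.34, and Rxra from 9.65 to 8.97 FPKM, a log2 ratio of -0.10.

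Within the nuclear receptor superfamily, the Nr4a genes were among the receptors with the most negative genotype ratios. Of 39 listed receptor genes kept in the vehicle pair, 7 were past the fold downward and 1 upward. Of the 36 other than the Nr4a genes, 4 were past it downward, a share near the 13.4% of all genes. Nr4a2 had the second lowest ratio, Nr4a1 the third and Nr4a3 the fifth, and the lowest was that of Vdr, the vitamin D receptor, which was under 1 FPKM in both groups. For R6/1-RGFP109 over R6/1-vehicle, the Nr4a genes ranked 1, 3 and 4 from the top of 38 receptor genes, while the median was -0.01 and Nr4a2 was the only receptor past the fold upward. Downward, 2 receptors were past it. Esrrb, an estrogen-related receptor, was under 1 FPKM in both groups and at a log2 ratio of -0.55, and Nr2f2 (COUP-TFII) went from 5.13 FPKM in R6/1-vehicle to 3.16 FPKM in R6/1-RGFP109, a log2 ratio of -0.69.

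**Figure D3:**
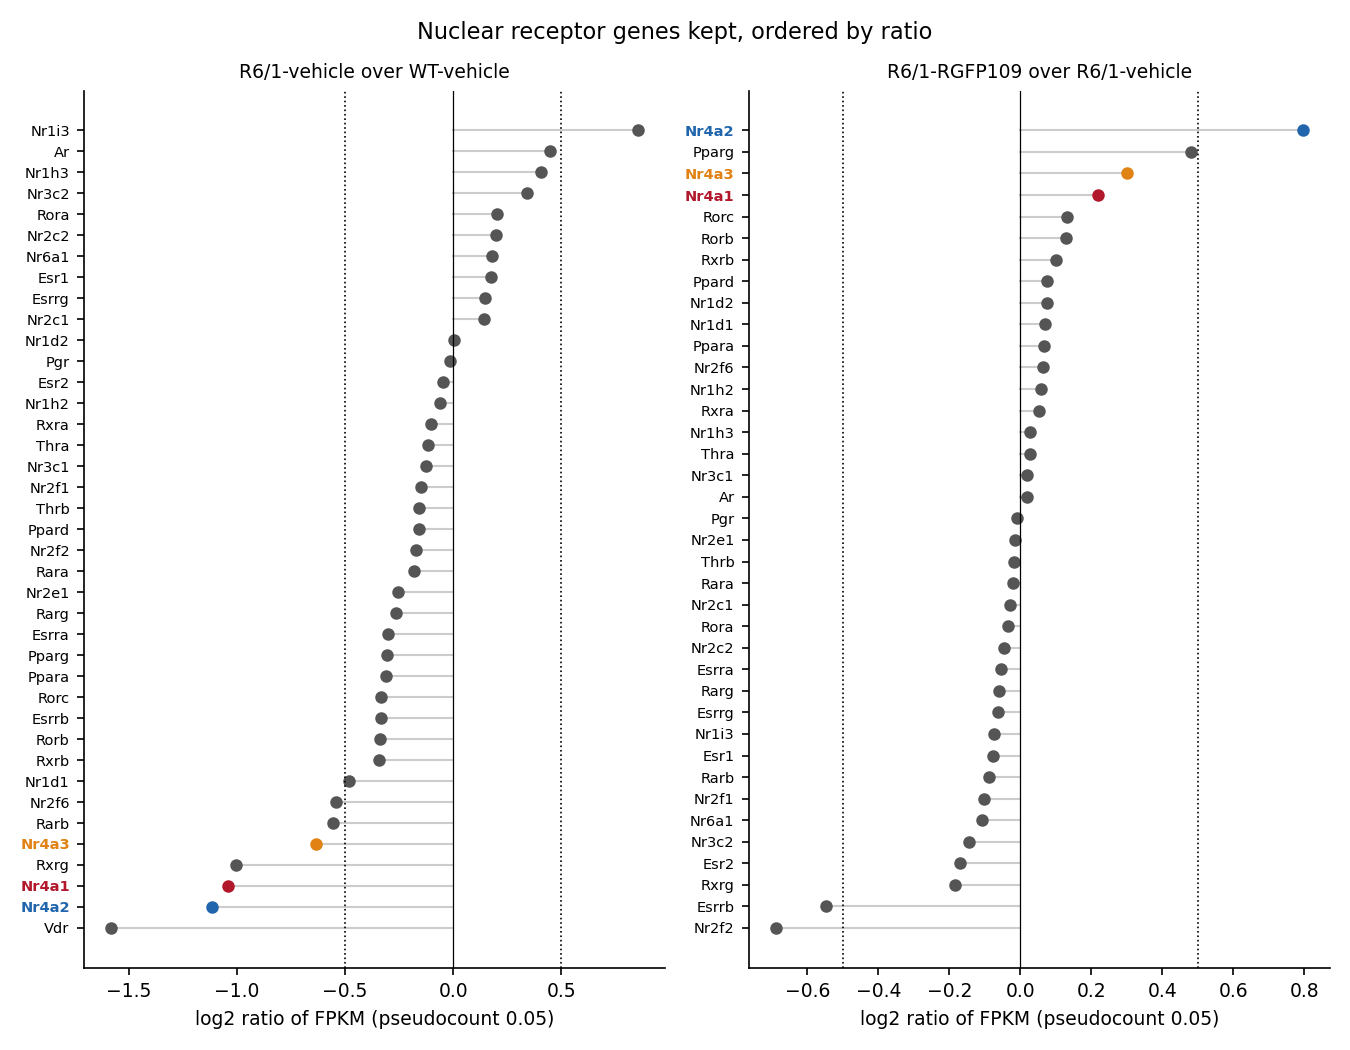
Log2 ratio of FPKM for every listed nuclear receptor gene kept, ordered by ratio, for R6/1-vehicle over WT-vehicle (39 genes) and R6/1-RGFP109 over R6/1-vehicle (38 genes); dotted lines mark 0.5 and -0.5. The Nr4a genes, in colour, are at the low end of the first panel at -1.11, -1.04 and -0.64, and at the high end of the second at 0.80, 0.30 and 0.22.

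A list of 22 other immediate early genes, which are switched on by the same kinds of stimulus, was also lower in R6/1. In the vehicle pair 15 of 22 were past the fold downward and none upward, beside the 13.4% of all genes, with a median log2 ratio of -0.69. Egr2, a zinc finger factor, was 4.47 FPKM in WT-vehicle and 0.599 FPKM in R6/1-vehicle, a log2 ratio of -2.80. Npas4, a factor that responds to calcium entry, was 17.1 and 5.43 FPKM in these groups, a log2 ratio of -1.65, Arc, a synaptic protein, was 75.1 and 26.7 FPKM, a log2 ratio of -1.49, and Ier2 was 4.99 and 2.30 FPKM, a log2 ratio of -1.10. Nr4a2, at -1.11, lay close to Ier2, and Nr4a1, at -1.04, just above it. Between the RGFP109 groups 12 of 22 were past the fold downward and none upward, beside 11.7% and 5.39% of all genes, with a median of -0.63.

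With RGFP109 in R6/1, none of the 22 was past the fold in either direction, where 2.62% of all genes were past it upward and 3.14% downward. The median log2 ratio of the list was 0.03 and the highest was 0.30, that of Bdnf. Nr4a3, at 0.30, and Nr4a1, at 0.22, lay inside the range of the list, and Nr4a2, at 0.80, lay above it; the difference was not tested. Npas4 was 5.62 FPKM in R6/1-vehicle and 6.27 FPKM in R6/1-RGFP109, and Arc was 27.6 and 26.4 FPKM. In WT the list's median was -0.19, 15 of 22 genes had a ratio below 0, and Npas4 was past the fold, at 16.5 FPKM in WT-vehicle and 10.5 FPKM in WT-RGFP109, a log2 ratio of -0.66, while all 3 Nr4a ratios were above 0. In the RefSeq promoter table, 17 of the 22 genes had a window, some more than 1, and the window with the most cores was taken. At least 1 TGACG core was in 14 of them, beside 17.8% of all single windows and 28.4% of those in the GC range of the Nr4a windows. The choice of the best window raises this count against single windows. None of the 17 held 4, which is near the share of windows in general, as only 0.137% of all windows held 4 or more.

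**Figure D4:**
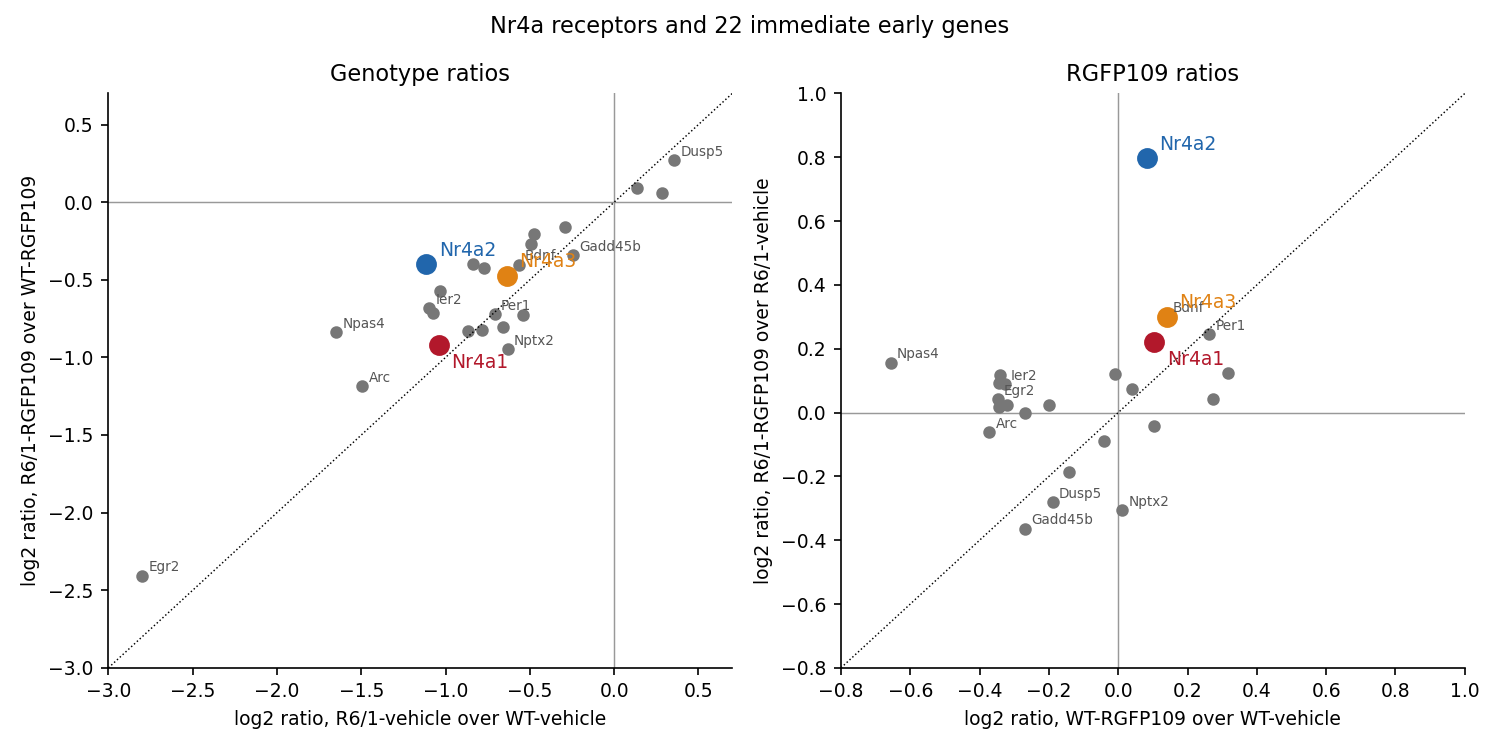
Log2 ratios of FPKM of 22 immediate early genes (grey) and the Nr4a genes (coloured). The left panel plots the genotype ratio with vehicle against that with RGFP109, which use different libraries; Nr4a2 lies above the dotted line of equal ratios, at -1.11 and -0.40. The right panel plots the RGFP109 ratio in WT against that in R6/1, where Nr4a2 lies at 0.08 and 0.80 and the grey points reach no higher than 0.30 on the vertical axis, that of Bdnf, which the dot of Nr4a3 covers.

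Of 25 listed genes on the cAMP and calcium inputs to Nr4a transcription, 4 were past the fold downward in the vehicle pair. None was past it upward, and the downward share was near the 13.4% of all genes. The median log2 ratio of the list was -0.01, and 1 of the 4 was under 1 FPKM in both groups. Adcy5, the main adenylyl cyclase of striatal neurons, was 220.6 FPKM in WT-vehicle and 97.6 FPKM in R6/1-vehicle, a log2 ratio of -1.18. Camk4, a kinase that phosphorylates CREB, was 28.9 and 15.4 FPKM in these groups, a log2 ratio of -0.91, and Camk2a was 617.0 and 366.7 FPKM, a log2 ratio of -0.75. The same 3 genes had log2 ratios of -0.13, 0.05 and 0.02 for R6/1-RGFP109 over R6/1-vehicle, and none of the 24 genes kept in that pair was past the fold.

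Nuclear corepressor and CoREST components, which include the targets of RGFP109, had 0 of 14 genes past the fold in each of the 6 pairs. For R6/1-RGFP109 over R6/1-vehicle, where 2.62% of all genes were past it upward and 3.14% downward, such a count is near that of genes in general. In WT these shares were 3.19% upward and 4.92% downward. Between genotypes the shares of all genes were larger. They were 13.4% downward and 5.84% upward in the vehicle pair, and 11.7% and 5.39% between the RGFP109 groups. For R6/1-RGFP109 over WT-vehicle they were 13.8% and 5.42%, and for WT-RGFP109 over R6/1-vehicle 5.96% and 11.4%. Hdac3 was 61.3 FPKM in R6/1-vehicle and 61.5 FPKM in R6/1-RGFP109, and Hdac1 was 4.32 and 4.05 FPKM in these groups. Htt, the mouse gene whose human copy supplied the transgene, was 16.9 FPKM in WT-vehicle and 19.1 FPKM in R6/1-vehicle, a log2 ratio of 0.17; reads of the human exon were not counted separately here.

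A list of dopamine neuron genes linked to Nr4a2, not all of them its known targets, gave counts that differed between pairs. For R6/1-RGFP109 over R6/1-vehicle, 0 of 9 kept were past the fold, where 2.62% of all genes were past it upward and 3.14% downward, with a median log2 ratio of -0.01. Between the RGFP109 groups 5 of 9 were past it downward and 1 upward, beside 11.7% and 5.39% of all genes, with a median of -0.60, and Nr4a2 was at -0.40. In WT-RGFP109 over R6/1-vehicle 5 of 9 were past it upward and none downward, beside 11.4% and 5.96% of all genes, with a median of 0.52. They were the same 5 genes, and both pairs hold WT-RGFP109, so the counts are not separate. Of the 5, Slc6a3 and Ret were under 1 FPKM in these groups. In the vehicle pair 1 of 8 was past it downward, near the 13.4% of all genes: Vip, a neuropeptide, was 12.5 FPKM in WT-vehicle and 2.98 FPKM in R6/1-vehicle, a log2 ratio of -2.05. Th, the rate-limiting enzyme of dopamine synthesis, was 4.45 and 4.36 FPKM in these groups and 4.51 and 3.88 FPKM in R6/1-vehicle and R6/1-RGFP109, but 4.29 FPKM in WT-vehicle and 8.84 FPKM in WT-RGFP109, a log2 ratio of 1.03, where Nr4a2 was at 0.08.

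The medians of all cell type marker lists were below 0 for R6/1 over WT with either treatment, as the Nr4a ratios were. For RGFP109 over vehicle most list medians were also below 0, in R6/1 and in WT, where the Nr4a ratios were above 0. Striatal projection neuron markers were all present in every group, as the labelled tissue would have them. Beside 13.4% of all genes, 9 of 12 of these markers were past the fold downward in R6/1-vehicle over WT-vehicle. Their summed level was 3355 to 3484 FPKM in WT-vehicle, 3230 to 3358 FPKM in WT-RGFP109, 1363 to 1410 FPKM in R6/1-vehicle and 1229 to 1266 FPKM in R6/1-RGFP109. Penk was 1114 FPKM in WT-vehicle and 276.0 FPKM in R6/1-vehicle, a log2 ratio of -2.01. With RGFP109 in R6/1 the median of this list was -0.14 and 12 of 12 ratios were below 0, the opposite sign to the 3 Nr4a genes. In bulk tissue, fewer cells of a type and less RNA per cell cannot be told apart.

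The genes listed as neocortical excitatory neuron markers had medians of the same sign as Nr4a2 in the vehicle pair and for RGFP109 over vehicle in R6/1. This was not so for RGFP109 over vehicle in WT. In the vehicle pair 9 of 12 were past the fold downward, beside 13.4% of all genes, with a median log2 ratio of -0.72. For R6/1-RGFP109 over R6/1-vehicle 2 of 12 were past it upward, beside 2.62% of all genes, and none downward, with a median of 0.37; with a pseudocount of 1 FPKM the count is 0. The pair past the fold were Neurod6, at 8.44 FPKM in R6/1-vehicle and 12.02 FPKM in R6/1-RGFP109, a log2 ratio of 0.51, and Neurod2, at 9.26 and 13.1 FPKM, a log2 ratio of 0.50. Of the 12 ratios for R6/1-RGFP109 over R6/1-vehicle, 9 were above 0 and 3 below, the lowest that of Lamp5 at -0.19. For WT-RGFP109 over WT-vehicle 1 of 12 was past the fold downward, beside 4.92% of all genes. In that pair 9 of 12 ratios were below 0, with a median of -0.12, where Nr4a2 was at 0.08. The summed level of the list was 1470.0 to 1526 FPKM in WT-vehicle, 1223 to 1271 FPKM in WT-RGFP109, 818 to 847 FPKM in R6/1-vehicle and 861 to 888 FPKM in R6/1-RGFP109, and no marker was at 0 in any group. Nrgn made up most of this sum, at 1081 FPKM in WT-vehicle and 555.7 FPKM in R6/1-vehicle in the vehicle pair. Between the WT groups it was 1044 FPKM with vehicle and 814 FPKM with RGFP109. How far striatal cells contributed to these levels was not measured. Of 10 claustrum and deep layer markers, 6 were past the fold downward in the vehicle pair, beside 13.4% of all genes, with a median of -1.04. None was past it for R6/1-RGFP109 over R6/1-vehicle, beside 2.62% of all genes upward and 3.14% downward, with a median of 0.06. In that pair 5 of 10 log2 ratios were above 0, with Cplx3 at 0.49, Ctgf at 0.47 and Ntng2 at 0.41 the highest. The other 5 were below 0, down to -0.14 for Moxd1. The summed level of this list was 124.1 to 128.8 FPKM in WT-vehicle, 122.0 to 126.8 FPKM in WT-RGFP109, 90.2 to 93.4 FPKM in R6/1-vehicle and 94.8 to 97.8 FPKM in R6/1-RGFP109. The part of these cells in the Nr4a2 difference was not tested.

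In both genotypes 8 of 8 choroid plexus markers were past the fold downward with RGFP109, beside 3.14% of all genes in R6/1 and 4.92% in WT. The markers had medians of -2.35 in R6/1 and -1.82 in WT. Their summed level was 47.6 to 49.4 FPKM in WT-vehicle, 17.0 to 17.6 FPKM in WT-RGFP109, 26.9 to 28.0 FPKM in R6/1-vehicle and 9.55 to 9.85 FPKM in R6/1-RGFP109, an order unlike that of any Nr4a gene. Oligodendrocyte markers had a median of -0.51 in the vehicle pair, with 4 of 7 past the fold downward, beside 13.4% of all genes. Their median was 0.08 for R6/1-RGFP109 over R6/1-vehicle. Astrocyte, microglia and endothelial markers had medians of -0.35, -0.28 and -0.20 in the vehicle pair and between -0.12 and -0.05 for R6/1-RGFP109 over R6/1-vehicle. Their part in the Nr4a differences was not tested.

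**Figure D5:**
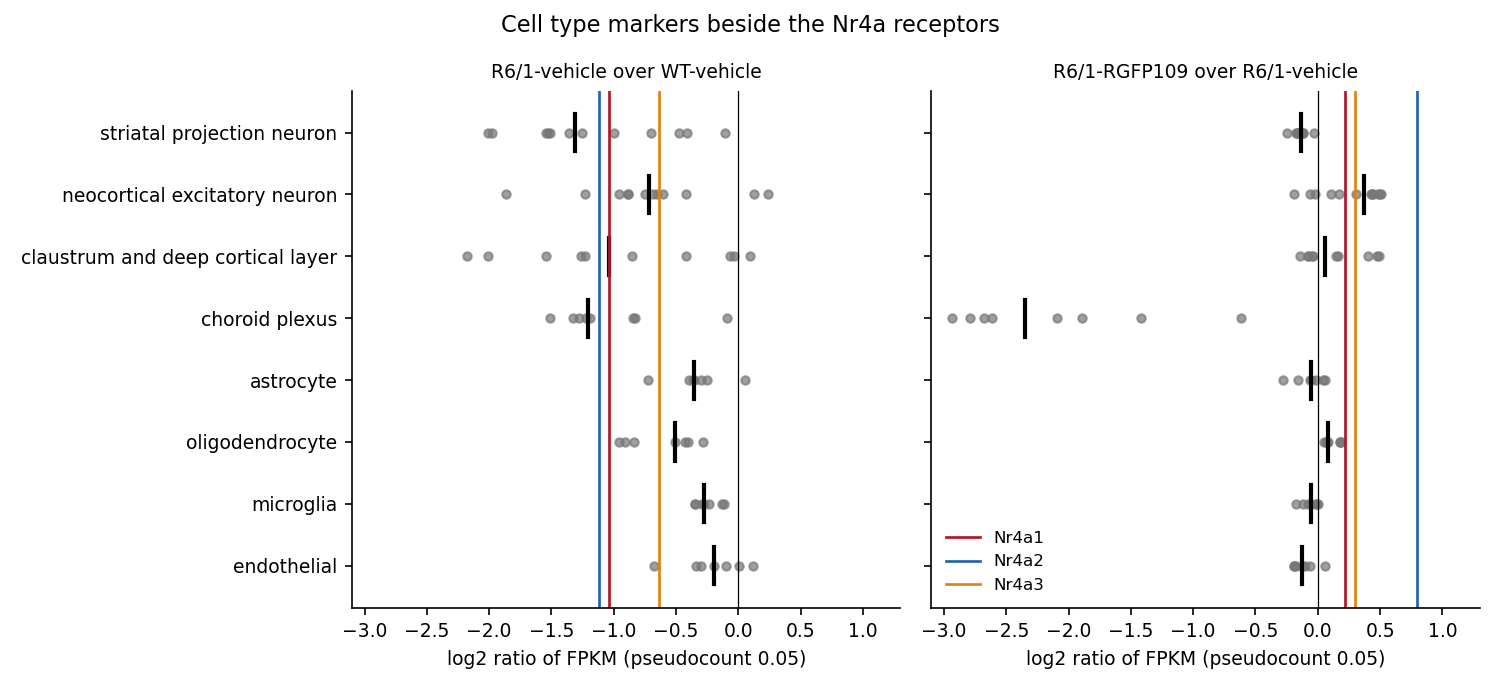
Log2 ratio of FPKM of each marker gene (grey dots), by cell type, with the median of each list as a black bar and the ratios of the Nr4a genes as coloured lines, for R6/1-vehicle over WT-vehicle and R6/1-RGFP109 over R6/1-vehicle. In the second panel the neocortical list has the highest median, 0.37, on the same side of 0 as the line of Nr4a2 at 0.80.

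Among the 12965 genes with at least 1 FPKM in every group and table, a few had 6 ratios close to those of a member; likeness is the largest of the 6 absolute differences, over only 4 group values that the ratios share. For Nr4a1 the nearest were Dgkz, a diacylglycerol kinase, at a largest difference of 0.10, Tgfbr3l at 0.10 and Necab3, a neuronal calcium-binding protein, at 0.12. Dgkz stood at a median of 141.9 FPKM in WT-vehicle, 68.5 FPKM in R6/1-vehicle, 142.7 FPKM in WT-RGFP109 and 80.8 FPKM in R6/1-RGFP109. For Nr4a3 the nearest were D330041H03Rik at 0.07, Bdnf, the neurotrophin, also at 0.07, and Igflr1 at 0.09. Bdnf stood at 2.64 FPKM in WT-vehicle, 1.77 FPKM in R6/1-vehicle, 2.91 FPKM in WT-RGFP109 and 2.197 FPKM in R6/1-RGFP109.

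The pattern of Nr4a2 was less common by this measure. Only 2 genes came within 0.2 of it on the log2 scale, against 23 for Nr4a1 and 34 for Nr4a3. They were Mir3091, at 0.16, and Gm11549, at 0.17, with Mir3070a next at 0.24. Mir3091 and Mir3070a are microRNA genes, whose FPKM rests on a very short length. Gm11549 was 8.06 FPKM in WT-vehicle, 3.30 FPKM in R6/1-vehicle, 7.60 FPKM in WT-RGFP109 and 5.88 FPKM in R6/1-RGFP109. The members were less alike than this among themselves, with largest differences of 0.49 between Nr4a1 and Nr4a3, 0.50 between Nr4a2 and Nr4a3 and 0.58 between Nr4a1 and Nr4a2.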

How the data were processed

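Striatal RNA was sequenced in 24 libraries as single-end reads from TruSeq RNA libraries. The authors used STAR 2.5.0b to align reads to the mouse RefSeq transcriptome (mm10) and Cufflinks 2.2.1 to estimate FPKM. Cuffdiff was run on each pair of groups, and the 6 deposited tables hold 1 pooled FPKM value per group and gene. They also hold the authors' own log2 fold changes, test statistics, p-values and q-values, which were not used. FPKM of 1 group differed between its 3 tables by a nearly common factor, so ratios were taken within 1 table. Counts, depth and library strand are not given in the sources used here.

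Log2 ratios used a pseudocount of 0.05 FPKM, on which scale changes of low genes are understated. Genes were kept over 0.1 FPKM in at least 1 group of a pair, and the minimum log2 ratio of 0.5 is that of the study's methods. Without values per library, no test was run. The ratio functions were tested on simulated data. Promoter windows came from RefSeq (GRCm38.p6), gene models from GENCODE vM21. Values were computed with Python 3.11.15, numpy 2.4.6 and pandas 2.3.3. Named genes were the members, the retinoid X receptors, Hdac1, Hdac3, Htt, up to 4 genes past the fold per list and pair with the largest ratios among those with at least 1 FPKM, and the 3 genes most like each member; Vdr, Esrrb and list genes inside the fold named beside a range were added after their values were seen. The members and gene lists were chosen with earlier results of these data known. A marker gene of the neocortical list is not reported here and was left out of its counts.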

Additional observations from a re-analysis of the deposited data

How the results depend on the processing

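The 18 log2 ratios of the Nr4a genes were recomputed under 5 alternatives each. A pseudocount added to both levels cannot change the sign of a ratio, and a route through another group reuses the same pooled levels. That none past the fold changed sign is therefore no test of the ratios. Without a pseudocount the ratios moved by at most 0.01 and with centring on the median of all genes kept by at most 0.02. When taken through another group they moved by at most 0.004. A pseudocount of 1 FPKM moved 5 of them by over 0.1 toward 0: Nr4a2 to -0.99 and Nr4a3 to -0.48 for R6/1-vehicle over WT-vehicle, Nr4a3 to -0.37 for R6/1-RGFP109 over WT-RGFP109, and Nr4a2 to 1.07 and Nr4a3 to 0.59 for WT-RGFP109 over R6/1-vehicle. Of these only Nr4a3 in the vehicle pair crossed 0.5. Counts over all genes depended more on the settings. For R6/1-vehicle over WT-vehicle, 3266 genes were past the fold, against 2094 over 1 FPKM, 1572 with a pseudocount of 1 FPKM and 1050 past a log2 ratio of 1. For R6/1-RGFP109 over R6/1-vehicle, 971 were past it, against 1483 without a filter, 445, 371 and 388. Of 84 counts of listed genes, centring moved 0 by over 1.5 times, no filter 1, the filter at 1 FPKM 7, the pseudocount of 1 FPKM 12 and the log2 ratio of 1 moved 40. No paired analysis was possible because the tables hold 1 pooled value per group, and leaving out single mice was not possible for the same reason. Low levels such as that of Nr4a3 carry an unknown counting error, since no depth is known.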
